A study of Mus musculus with 18 samples.

Results

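Long intergenic non-coding RNAs, or lincRNAs, are transcripts without a protein product that lie between protein-coding genes. The array used here held 4607 regions of this kind that are named only by their genomic interval and strand, and the 1394 regions described here are the short ones. They were taken as the lincRNA entries on chromosomes 1 to 19 whose interval starts at position 6000000 or later and spans less than 5 kb, with 1 interval of chromosome 6 left out. The choice used names and positions and no measured value. These regions carried 3613 of the 16181 probes for position-named lincRNA regions, and the whole array held 55681 probe names. RNA came from the nuclei and the cytoplasm of single myofibers, the multinucleated cells of skeletal muscle, of CD1 female mice of 3 months. Fibers were dissociated with collagenase from extensor digitorum longus (EDL, a fast muscle), soleus (a slow muscle) and tibialis anterior (TA), and each array held the RNA of 1 pool of 5 to 10 fibers. Each fraction of each muscle had 3 arrays, 18 in all, with no treatment. By the labels EDL and soleus pools 1, 2 and 3 came from the same mice in both fractions, whereas for TA the mice of the fractions matched only in part and TA cytoplasm 1 and 2 had mouse 5 in common.

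Most lincRNAs are made by RNA polymerase II, and many are spliced and polyadenylated as mRNAs are. Some remain in the nucleus, as Xist, which coats the inactive X chromosome, and Neat1, the scaffold of paraspeckles, do. Others are exported along with the mRNAs. A known example from muscle is linc-MD1, which acts during differentiation. The regions described here have no gene symbol on the array or transcript model, so a probe reports only the stretch of RNA it matches.

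The regions spanned 61 to 4970 bases (end minus start, array coordinates of build mm9), with a median of 647, and 910 of the 1394 spanned at most 1000. There were 711 on the forward and 683 on the reverse strand, and no interval was given on both strands. Each region carried 1 to 3 probes of 60 bases (3 probes in 1027 regions, 2 in 165 and 1 in 202). Probes lay toward the 3′ end, which they missed by a median of 158 bases, and 66.8% lay within 250 bases of it. A total of 143 of the 3613 probes shared at least 30 bases with a probe of another name.

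The fractions differed in many known transcripts, though not in all of them. Nuclei minus cytoplasm differences, as log2 of the signal averaged over the 3 muscles, were 4.38 ± 0.47 (SE) for Xist, 2.78 ± 0.14 for Neat1, 2.71 ± 0.31 for Malat1 and 2.23 ± 0.17 for Meg3, while Gas5 (-1.0 ± 0.15) and Pvt1 (-1.33 ± 0.15) were higher in cytoplasm. Of the other lncRNAs checked, Snhg1 was higher in nuclei (0.98 ± 0.21). Kcnq1ot1 (0.13 ± 0.14), Tug1 (-0.21 ± 0.25) and H19 (0.20 ± 0.16) were called in neither direction. All 10 fiber genes checked were well above background on every array, and 8 of them were higher in nuclei. Genes of other cells of muscle tissue were measured too. Higher in nuclei were 8 of 8 endothelial, 6 of 7 Schwann cell, 6 of 7 connective tissue and 2 of 4 tested satellite cell genes. Higher in cytoplasm were 5 of 7 macrophage and 2 of 4 erythroid genes. Their part in the values that follow was not tested. The 4 slides followed the fractions in part. Slide 1 held the cytoplasmic arrays of EDL and soleus with TA cytoplasm 1, slide 2 held the nuclear arrays of EDL and soleus, slide 3 held TA cytoplasm 3 alone, and slide 4 held the TA nuclei together with TA cytoplasm 2. A slide effect and a fraction effect in EDL and soleus cannot be told apart. A lower content of an RNA in a fraction and a smaller share of that fraction's cells or nuclei carrying it cannot be told apart either. The soleus cytoplasm 2 array stood apart from the other cytoplasmic arrays: on the first principal component of 1942 short-region probes (61.7% of the variance) it lay at -4.03, with the other 8 between -38.54 and -21.10 and the 9 nuclear arrays between 18.39 and 28.41.

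Probes with large differences between the fractions are shown first, because the sequence is the only identity these regions have. They are the 6 largest differences each way among probes with signal in each group and no overlap of the fractions, 1 per region. Each is written 5′ to 3′ in the sense of the RNA it detects. The 6 toward nuclei had no stretch of 30 bases in common with a probe of another name.
A_30_P01019105, chr8:48480224-48480698, reverse: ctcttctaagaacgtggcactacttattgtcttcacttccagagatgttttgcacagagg
A_30_P01028474, chr7:99882675-99883730, reverse: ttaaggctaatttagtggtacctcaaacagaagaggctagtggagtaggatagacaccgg
A_30_P01017675, chr17:12965849-12968519, forward: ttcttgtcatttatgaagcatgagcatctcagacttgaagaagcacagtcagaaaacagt
A_30_P01020161, chr13:108653722-108654406, reverse: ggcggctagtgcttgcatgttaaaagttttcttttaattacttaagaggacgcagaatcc
A_30_P01027700, chr9:121256738-121257487, forward: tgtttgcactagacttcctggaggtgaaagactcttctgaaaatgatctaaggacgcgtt
A_30_P01024852, chr10:94870971-94871658, reverse: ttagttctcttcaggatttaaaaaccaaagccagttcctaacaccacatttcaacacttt

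The 6 toward cytoplasm, chosen by the same rule, follow. In the first and the last, capitals mark the bases shared with a probe of a longer lincRNA region (32 and 39 bases). In A_30_P01029670 they mark 45 bases whose complement lies in the RefSeq promoter window of Ipw (GRCm38.p6). In the other 3, which come from neighbouring regions of chromosome 7, they mark the letters GTGACA.
A_30_P01019442, chr5:14943275-14944205, forward: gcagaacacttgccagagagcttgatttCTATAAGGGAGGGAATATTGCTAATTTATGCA
A_30_P01029670, chr7:67047536-67050290, forward: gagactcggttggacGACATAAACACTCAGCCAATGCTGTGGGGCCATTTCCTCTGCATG
A_30_P01028507, chr7:71231097-71233680, reverse: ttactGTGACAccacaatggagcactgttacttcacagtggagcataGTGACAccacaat
A_30_P01021479, chr7:71220656-71221612, reverse: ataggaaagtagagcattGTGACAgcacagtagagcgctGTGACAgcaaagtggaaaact
A_30_P01029165, chr7:71221826-71222801, reverse: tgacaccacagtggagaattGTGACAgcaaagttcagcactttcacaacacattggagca
A_30_P01018086, chr2:181663381-181664097, forward: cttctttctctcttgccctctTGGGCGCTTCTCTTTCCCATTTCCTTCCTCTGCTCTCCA

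Short lincRNA regions were detected less often than the probes of the array as a whole. Of the 3613 probes, 1439 (soleus cytoplasm) to 1860 (TA cytoplasm) were well above background on 3 of 3 arrays of a group, or 39.8% to 51.5%, against 53.9% to 63.0% of all probes. The nuclear groups lay between 1569 (TA) and 1782 (soleus). On all 18 arrays 1200 probes (33.2%) were well above background, against 46.5% of all probes, and 734 (20.3%) were so on none, against 15%. At the level of regions, 806 of 1394 had a probe well above background on 18 arrays and 86 had none on any array. Detection on the 9 arrays of one fraction and on none of the other was rare. It was found for 13 probes in nuclei (0.36%, against 0.436% of all probes) and for 27 in cytoplasm (0.747%, against 0.691%).

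In the comparison of the fractions over the 3 muscles, short lincRNA regions lay toward the cytoplasm. Of the 3613 probes, 2316 from 1198 regions had enough values to be tested, and 1665 passed an adjusted p of 0.05. Of these, 1308 were higher in cytoplasm and 357 in nuclei, that is 56.5% and 15.4% of the probes tested, against 38.6% and 31.2% of the 40541 probes tested on the array (69.8% in either direction). The median difference, nuclei minus cytoplasm in log2, was -0.57 (quartiles -1.1 and 0.05), and that of all probes was -0.08. LincRNA regions of 5 to 20 kb (4366 probes, median -0.41) and over 20 kb (4101 probes, median -0.43) also lay below the array as a whole. Cytoplasm-higher calls made up 49.9% and 51.0% of their probes. How far the scaling moved these values is given by the median of all probes, which was -0.30 with each array scaled to its 75th percentile and 0.42 with no scaling. Relative to that median, the short regions lay at -0.49, -0.53 and -0.54 under the 3 scalings, but at -0.19 with another background correction (normexp with an offset of 50). With that correction 1282 probes were called toward cytoplasm and 347 toward nuclei, and 68.9% of all probes in either direction. Without scaling the split was 626 toward nuclei and 779 toward cytoplasm. With slide as a random block 889 of 2316 probes were called over the 3 muscles, 707 toward cytoplasm and 182 toward nuclei. Of all probes 36.1% were called under that setting.

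**Figure D1:**
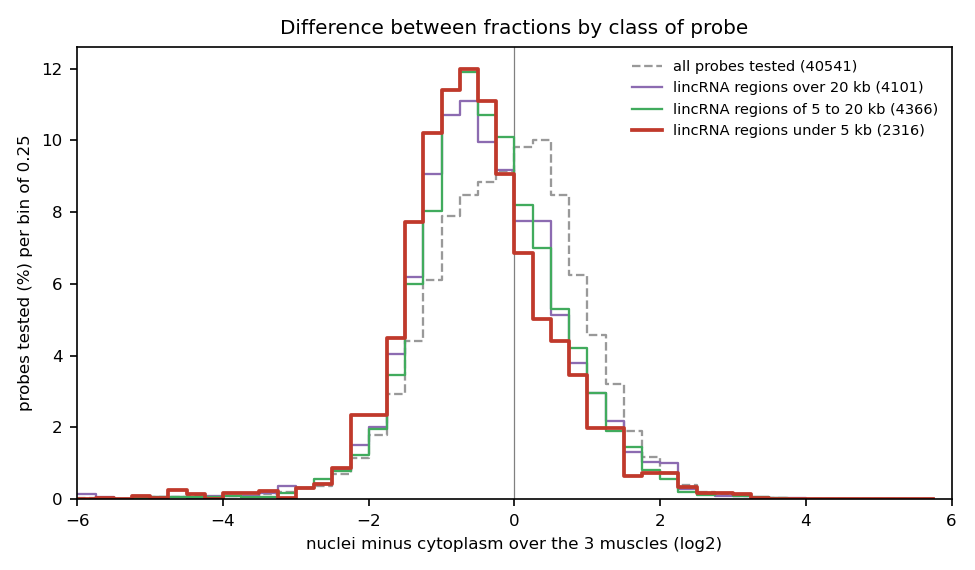
Share of the tested probes (percent, per bin of 0.25) by nuclei minus cytoplasm difference over the 3 muscles (log2), for short lincRNA regions, longer lincRNA regions and all probes. The short regions peak left of 0, with a median of -0.57 against -0.08 for all probes.

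The same direction was seen in each muscle. In EDL 1013 probes were higher in cytoplasm and 287 in nuclei of 2588 tested, or 39.1% and 11.1%, against 26.5% and 20.0% of all probes (46.6% in either direction), with a median of -0.50 (-0.05 for all probes). In soleus 778 were higher in cytoplasm and 322 in nuclei of 2564, or 30.3% and 12.6%, against 21.7% and 18.7% (40.3%), with a median of -0.35 (-0.01). In TA 1291 were higher in cytoplasm and 187 in nuclei of 2601, or 49.6% and 7.19%, against 33.5% and 19.2% (52.7%), with a median of -0.78 (-0.22). The soleus split depended on the scaling: with no scaling 1028 calls were toward nuclei and 164 toward cytoplasm and the median was 0.56, that of all probes being 0.96, and with 75th percentile scaling the split was 220 and 1088. In EDL it was 449 and 633 without scaling. With slide as a random block there were 347 calls in EDL, 262 of them toward cytoplasm, and 1391 in TA, 1224 of them toward cytoplasm. In soleus there were 182, with 99 toward cytoplasm and 83 toward nuclei. Of all probes 12.1% in EDL, 50.4% in TA and 6.89% in soleus were called under this setting. Without soleus cytoplasm 2, the array that stood apart, 960 probes were higher in cytoplasm and 285 in nuclei in soleus (median -0.53), and 1357 and 334 over the 3 muscles (median -0.64).

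Of the 2316 probes tested in each muscle, 735 were called in all 3 (31.7%, against 28.3% of the 40541 probes of the array tested so). Of these, 612 were higher in cytoplasm and 121 in nuclei throughout, or 26.4% and 5.22% of the probes tested, against 17.6% and 10.6%. Another 2 were called in opposite directions, or 0.272% of those called in all 3, against 0.366%, and 604 were called in no muscle (26.1%, against 31.8%). The comparisons of the 3 muscles share no arrays, although those of EDL and soleus share their slides. Opposite calls were 5 of 837 between EDL and soleus (0.597%, against 0.199% of all probes), 2 of 1009 between EDL and TA (0.198%, against 0.389%) and 13 of 808 between soleus and TA (1.61%, against 1.57%). TA is the muscle in which both fractions share a slide. Within slide 4, where 3 nuclear arrays stand against 1 cytoplasmic array, the median of 2580 tested short-region probes was -0.91 and that of all probes -0.33. Within the arrays of 1 scan day, with TA cytoplasm 2 and 3, it was -0.69 (2601 probes) and -0.23. These arrays are part of the TA comparison itself and are no second measurement. The median SD between replicates was 0.32 (EDL), 0.45 (soleus) and 0.41 (TA) in cytoplasm and 0.18, 0.17 and 0.22 in nuclei.

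The shortest regions lay farthest toward the cytoplasm. For regions of up to 250 bases the median difference was -0.75 (111 probes), and it was -0.72 for those of up to 500 bases (614 probes), -0.61 up to 1000 (731 probes), -0.38 up to 2000 (360 probes) and -0.42 for the rest (500 probes). Calls toward the cytoplasm made up 71.2% of the probes in the first of these classes and 49.0% in the last, and calls toward nuclei 11.7% and 18.0%. In each muscle the 3 classes of up to 1000 bases lay lower than both longer ones, with medians from -0.69 to -0.55 against -0.33 and -0.32 in EDL, from -0.49 to -0.39 against -0.21 and -0.19 in soleus and from -1.05 to -0.78 against -0.64 and -0.56 in TA. The ranges between the quartiles of the classes overlapped. Base composition and position changed with length as well: mean GC content was 44.9% in the shortest class and 43.3% in the longest, and an annotated gene was probed within 10 kb on the same strand for 11.5% and 21.0% of the probes. Their part in the trend was not tested.

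**Figure D2:**
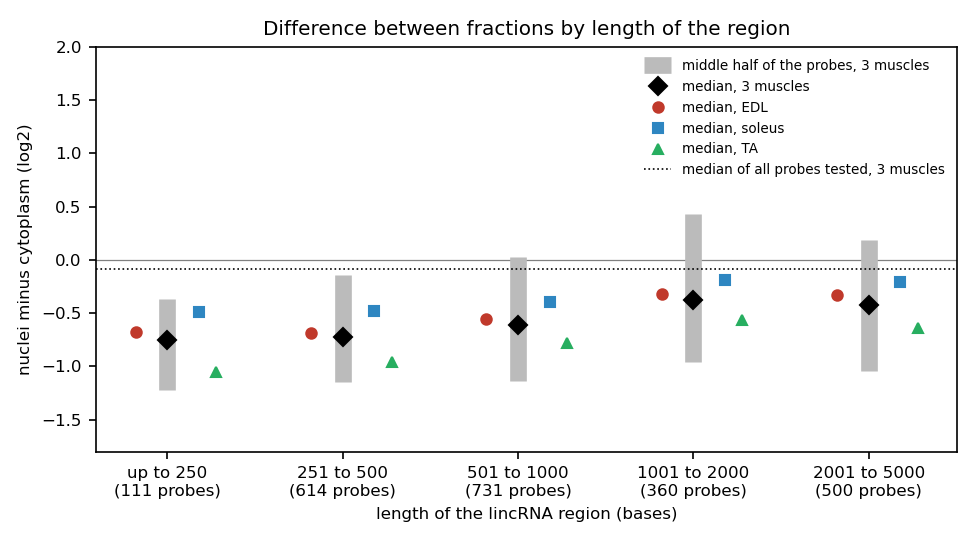
Median nuclei minus cytoplasm difference (log2) of the tested probes by length class of the lincRNA region (bases), over the 3 muscles (diamonds, with a bar between the quartiles) and in each muscle. Medians over the 3 muscles go from -0.75 in the shortest class to -0.42 in the longest, and the dotted line at -0.08 is the median of all probes.

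Across the array, GC-rich probes lay further toward the cytoplasm than AT-rich ones, and short lincRNA probes had a lower median than all probes in each of 6 classes of GC content. With at most 35% GC the median was -0.03 for short regions (206 probes) and 0.58 for all probes. From 40% to 45% GC, the class with most of the members (1238 probes), it was -0.60 against -0.19, and from 45% to 50% it was -0.91 against -0.33. Above 55% they were -0.34 and -0.26. The relation to the level of the signal ran the other way in the members and in the array. In the lowest of 4 equal classes of level the medians were -0.38 for short regions (839 probes) and -0.22 for all probes, and in the highest class -0.78 (282 probes) and 0.09.

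Short regions close to an annotated gene did not share the shift. Where an annotated gene was probed on the same strand within 2000 bases, the median was 0.02 (118 probes). There were 38 calls toward nuclei and 36 toward cytoplasm, or 32.2% and 30.5%, against 31.2% and 38.6% of all probes. Up to 10000 bases it was -0.40 (336 probes), up to 50000 bases -0.60 (668 probes), up to 200000 bases -0.63 (828 probes) and beyond that -0.69 (366 probes). For genes on the opposite strand the medians were -0.04 (44 probes), -0.51, -0.51, -0.59 and -0.63 over the same distances. The difference of the region and that of the nearby gene were little related. Over 377 probe pairs within 10 kb on the same strand, the medians were -0.26 for the region and 0.49 for the gene, 174 had the same sign, and the correlation across pairs was r = 0.08 (rho = 0.04), where pairs of a region share the gene and all share the arrays. Among the called probes, 30% of those higher in nuclei and 14.8% of those higher in cytoplasm had an annotated gene probe within 10 kb on the same strand. Their regions had median lengths of 903 and 610 bases. The letters AATAAA, the common polyadenylation signal, were in 5.6% and 3.82% of these probes and in 10.1% of all probes of the array (strand of the probe only).

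Many short regions lie inside a longer lincRNA region of the array. The 643 regions inside one on the same strand had a median of -0.44 (1072 probes), and the longer regions around them had -0.45. The 652 regions with a longer one on the opposite strand had -0.44 (1086 probes) against -0.30. Most of these regions lie inside a longer one on both strands, so the sets are largely the same regions. Calls toward cytoplasm and nuclei were 543 and 223 in the first of these sets (50.7% and 20.8% of its tested probes) and 546 and 231 in the second (50.3% and 21.3%). The 711 regions inside none had a lower median of -0.69 (1179 probes), with 735 calls toward cytoplasm and 124 toward nuclei (62.3% and 10.5%). Over all probes of the array the shares were 38.6% and 31.2%.

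The probes of 1 region mostly had 1 direction. Of 785 regions with at least 2 tested probes, 524 had calls toward cytoplasm alone and 123 toward nuclei alone. All tested probes were called toward cytoplasm in 286 and toward nuclei in 52. Opposite calls occurred in 70 regions (8.92%), beside 18.9% of the regions of 5 to 20 kb and 21.2% of those over 20 kb, which carry more probes over a longer stretch. The lowest and highest probe of a region lay a median of 0.74 apart (quartiles 0.36 and 1.22) and at most 3.82. By region, 770 were called toward cytoplasm alone, 178 toward nuclei alone, 70 both ways and 180 not at all, and 196 had no tested probe.

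Larger differences toward nuclei, such as 3.29 (A_30_P01020856) and 3.14 (A_30_P01026929), fell outside the choice of printed probes and are described below. Among the 6 printed probes higher in nuclei, the largest difference was that of A_30_P01019105 on chromosome 8, whose nearest annotated gene on its strand was probed 95354 bases upstream. Its log2 signal was 4.84, 4.30 and 6.00 in EDL cytoplasm and 7.98, 7.70 and 7.79 in EDL nuclei, 4.28, 5.28 and 4.15 in soleus cytoplasm and 8.34, 8.21 and 8.23 in soleus nuclei, and 5.84, 5.40 and 4.98 in TA cytoplasm and 8.24, 8.18 and 8.27 in TA nuclei. All nuclear arrays lay above all cytoplasmic ones, and the nuclear values hardly moved between muscles. The difference was 3.09 ± 0.21 (SE; adjusted p = 1.01e-08), and the other probes of the region gave 2.58 ± 0.19 (A_30_P01018715) and 2.33 ± 0.34 (A_30_P01027337).

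A_30_P01028474 on chromosome 7 differed by 2.80 ± 0.18 (adjusted p = 5.59e-09). Its signal was 5.64, 6.13 and 6.22 in EDL cytoplasm and 8.74, 9.15 and 8.98 in EDL nuclei, 5.52, 6.51 and 4.97 in soleus cytoplasm and 9.08, 8.88 and 8.99 in soleus nuclei, and 6.32, 5.74 and 5.58 in TA cytoplasm and 7.94, 8.03 and 7.99 in TA nuclei. The fractions did not overlap in any muscle, as the choice of printed probes required. Probes of a longer region on the opposite strand over the same bases, A_30_P01030532 and A_30_P01026247, differed by 2.43 ± 0.18 and 2.87 ± 0.30.

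A_30_P01017675 on chromosome 17 lies upstream of the probe of Airn, the lncRNA that runs antisense to the imprinted Igf2r gene. Its difference was 2.79 ± 0.21 (adjusted p = 2.76e-08), with cytoplasmic arrays between 3.66 and 5.35 and nuclear arrays between 7.03 and 7.8. The Airn probe, 39559 bases downstream on the same strand, went the other way at -0.86 ± 0.16. Whether the region is itself part of Airn was not tested. A_30_P01024852 on chromosome 10 has Socs2, a suppressor of cytokine signalling, 3408 bases upstream. It differed by 2.15 ± 0.15 (adjusted p = 1.66e-08) and Socs2 by 1.39 ± 0.15. The other probes of that region did not share the difference, at 0.11 ± 0.13 (A_30_P01027314) and -1.21 ± 0.14 (A_30_P01026073). The remaining probes were A_30_P01020161 (2.38 ± 0.24, region of chromosome 13) and A_30_P01027700 (2.33 ± 0.18, region of chromosome 9). In both the fractions were separate within every muscle, again as the choice required. The other probes of the chromosome 9 region gave 2.58 ± 0.18 (A_30_P01019613) and -0.15 ± 0.11 (A_30_P01023084). In the chromosome 13 region A_30_P01017920 gave 1.81 ± 0.13.

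**Figure D3:**
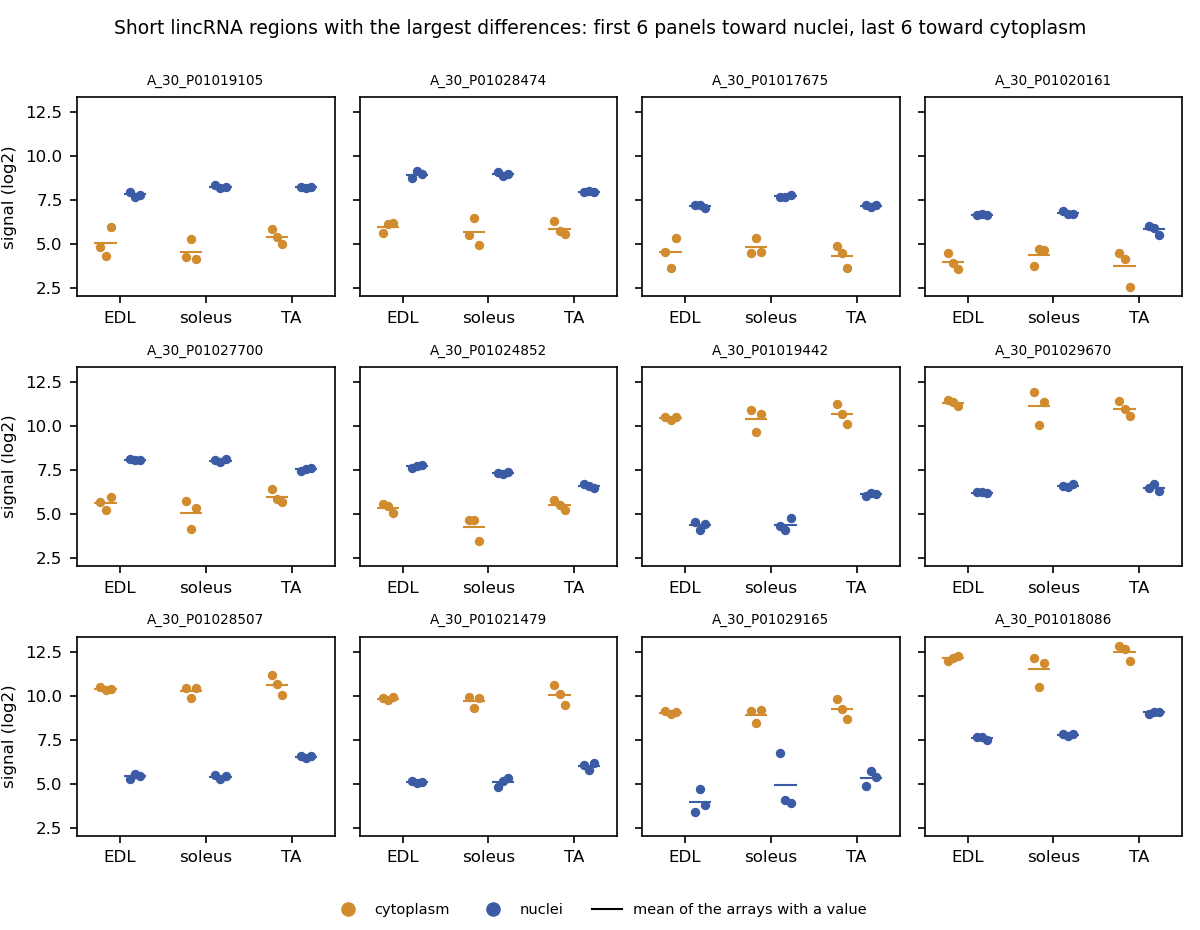
Log2 signal of each array for 6 short lincRNA regions toward nuclei (first 6 panels) and 6 toward cytoplasm (last 6 panels), by muscle. Cytoplasm is in orange and nuclei in blue, with a line at the mean. Shown are the largest differences among probes with signal in each group and no overlap of the fractions. The 2 fractions are separate in each panel because the probes were chosen so. The differences over the 3 muscles are 2.15 to 3.09 toward nuclei and -5.56 to -3.90 toward cytoplasm.

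The differences toward the cytoplasm were larger. A_30_P01019442 on chromosome 5 lies among the Speer genes, a family expressed in testis. Its signal was 10.49, 10.36 and 10.50 in EDL cytoplasm and 4.54, 4.08 and 4.43 in EDL nuclei, 10.89, 9.66 and 10.7 in soleus cytoplasm and 4.34, 4.09 and 4.77 in soleus nuclei, and 11.26, 10.7 and 10.09 in TA cytoplasm and 6.04, 6.21 and 6.11 in TA nuclei. The nuclear arrays of TA lay above those of the other muscles and still far below every cytoplasmic array. The difference was -5.56 ± 0.18 (adjusted p = 1.31e-11), the other probe of the region (A_30_P01029005) gave -5.18 ± 0.18, and the probe of Speer8-ps1, a pseudogene 34277 bases downstream, gave -3.34 ± 0.19. The printed probe shares 32 bases with a probe of another region of chromosome 5, so its signal may be that of more than 1 locus.

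A_30_P01029670 lies between Ube3a and Snrpn in the imprinted Prader-Willi and Angelman interval, and reads the strand opposite to Snrpn. Its signal was 11.45, 11.35 and 11.13 in EDL cytoplasm and 6.24, 6.23 and 6.17 in EDL nuclei, 11.91, 10.04 and 11.38 in soleus cytoplasm and 6.56, 6.55 and 6.72 in soleus nuclei, and 11.41, 10.95 and 10.59 in TA cytoplasm and 6.46, 6.68 and 6.32 in TA nuclei. The lowest cytoplasmic array, soleus 2, was above the highest nuclear one by several log2 units. The difference was -4.69 ± 0.20 (adjusted p = 1.04e-10) and that of the other probe of the region, A_30_P01019441, -5.09 ± 0.23. Both probes match the RefSeq promoter window of Ipw, another non-coding RNA of this interval, on the opposite strand. The probe of Ube3a itself, a ubiquitin ligase gene, gave 0.08 ± 0.15.

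A_30_P01018086 on chromosome 2, with Polr3k, a subunit of RNA polymerase III, 58553 bases upstream, had a signal between 10.5 and 12.84 in cytoplasm and between 7.48 and 9.09 in nuclei. Its difference was -3.90 ± 0.19 (adjusted p = 3.85e-10), and the other probe of the region (A_30_P01027375) gave -4.89 ± 0.22. Probes of longer regions over the same bases gave -2.93 ± 0.17 on the same strand (A_30_P01032905) and -2.26 ± 0.16 on the other (A_30_P01025538). Probes of both strands of this stretch were thus higher in cytoplasm.

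The other 3 probes came from 1 stretch of chromosome 7, the reverse strand of chr7:71220656-71233680, where 4 short regions with 11 probes follow each other. The nearest annotated genes were Klf13, a transcription factor, and Trpm1, a cation channel, at 137743 and 147932 bases from the first region. All 9 tested probes were higher in cytoplasm, by -4.65 to -2.06 (median -3.68). Of the 53 places with at least 3 short regions less than 10 kb apart, this one had the lowest median, the next lying at -1.69. A_30_P01028507 read 10.52, 10.34 and 10.37 in EDL cytoplasm and 5.28, 5.57 and 5.44 in EDL nuclei, 10.46, 9.89 and 10.46 in soleus cytoplasm and 5.49, 5.27 and 5.43 in soleus nuclei, and 11.19, 10.64 and 10.03 in TA cytoplasm and 6.56, 6.45 and 6.59 in TA nuclei. The fractions were separate in every muscle, which the choice of printed probes required. Its difference was -4.65 ± 0.14 (adjusted p = 1.17e-11), with -4.47 ± 0.15 for A_30_P01021479 and -4.34 ± 0.33 for A_30_P01029165. In the latter 1 nuclear array, soleus 1 at 6.75, lay above the other soleus nuclei (4.06 and 3.92) and below the lowest cytoplasmic array (8.45). The 2 untested probes, A_30_P01020944 and A_30_P01017484, were well above background on all 9 cytoplasmic arrays and on none of the nuclear ones. A longer region in the same stretch gave -3.88, -2.28 and -2.26.

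The probes of this stretch repeat a short word. The letters GTGACA, noticed in these sequences and searched on the strand of the probe, are in 9 of the 11 probes and at least 2 times in 5. Over the array they are in 1.91% of 55681 probes, and at least 2 times in 0.0611% (34 probes). Of short-region probes 81 (2.24%) hold them, 10 of them at least 2 times. The word was chosen after the values were seen and is a description of the sequence alone.

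**Figure D4:**
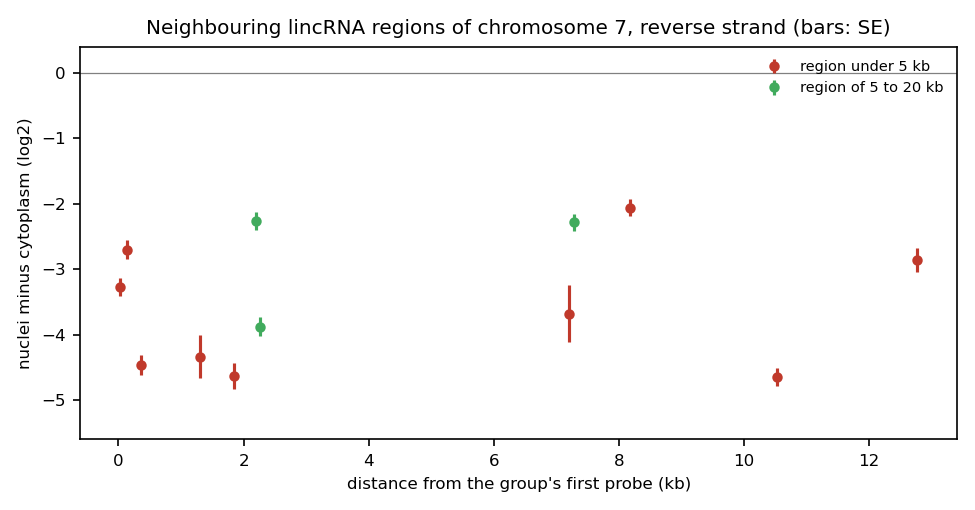
Nuclei minus cytoplasm difference (log2, bars are the SE) over the 3 muscles against the distance in kb from the first probe of the chromosome 7 stretch, for short regions and for the longer region among them. All 9 tested short-region probes lie between -4.65 and -2.06.

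For probes seen in 1 fraction alone a fold is a bound, the mean of the bright group over that of the dim group, which was taken on each array as the lowest signal well above background or the probe's own signal, whichever was higher. Spots without a usable value entered with their unfiltered signal, and the dim group was never set below the mean of its usable values. Toward nuclei, 13 probes were of this kind. The 3 with the highest signal were A_30_P01027378, at least 8.4-fold higher in EDL, 6.44-fold in soleus and 9.43-fold in TA, A_30_P01019065 (at least 11.4-, 16.0- and 6.64-fold) and A_30_P01021193 (at least 7.28-, 11.4- and 6.41-fold). The first of these is from the chromosome 13 region described above. The second is from the region upstream of the Airn probe, also described above, so 2 probes of each region gave the same direction. The remaining one, on chr5:111565658-111566257, lies in a region 34548 bases downstream of the probe of Ttc28.

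Toward cytoplasm 27 probes were of this kind. The 3 with the highest signal came from 2 regions. The first was A_30_P01031922 of chr8:19759348-19759959, reverse strand, whose next annotated gene on the strand, 6820431F20Rik, was probed 107401 bases upstream. Its signal was 8.64, 8.87 and 8.62 in EDL cytoplasm, 9.3, 7.4 and 8.09 in soleus cytoplasm and 9.07, 8.51 and 7.02 in TA cytoplasm, and 1 EDL and 3 TA nuclear arrays had a value, the highest 4.29. It was at least 82.9-fold higher in cytoplasm in EDL, 57.6-fold in soleus and 21.2-fold in TA. A_30_P01028617 of the same region gave at least 46.9-, 40.6- and 27.6-fold, while the last probe of that region, A_30_P01031767, gave -1.26 ± 0.26 and was well above background on all 18 arrays. A_30_P01022712 of chr5:14988715-14989311, again among the Speer genes, gave at least 64.9-, 45- and 20.3-fold. The other probes of that region, A_30_P01018152 and A_30_P01025015, gave -3.09 ± 0.16 and -1.54 ± 0.23.

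In 3 regions the probes lay farthest apart. Their sequences are given in the order of the differences from nuclei to cytoplasm, the first region being that of chromosome 10.
A_30_P01020856, chr10:96098058-96098623, forward: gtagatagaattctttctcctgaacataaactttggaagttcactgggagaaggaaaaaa
A_30_P01027893, the same region: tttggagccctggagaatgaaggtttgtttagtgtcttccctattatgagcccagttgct
A_30_P01033207, the same region: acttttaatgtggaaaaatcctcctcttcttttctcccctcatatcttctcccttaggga
A_30_P01019216, chr7:99882675-99883730, reverse: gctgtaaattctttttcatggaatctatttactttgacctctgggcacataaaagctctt
A_30_P01017923, the same region: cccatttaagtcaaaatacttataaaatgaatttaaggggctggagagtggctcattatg
A_30_P01024401, chr3:51004595-51005002, reverse: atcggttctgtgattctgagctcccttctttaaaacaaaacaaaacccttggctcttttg
A_30_P01027028, the same region: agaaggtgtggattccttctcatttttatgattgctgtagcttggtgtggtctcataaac
A_30_P01021118, the same region: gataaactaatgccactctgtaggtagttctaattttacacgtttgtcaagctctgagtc

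On chromosome 10 the region lies 12641 bases downstream of the probe of Btg1, an anti-proliferative factor that itself differed by 4.73 ± 0.31 toward nuclei. Its probes gave 3.29 ± 0.22 (A_30_P01020856), 1.30 ± 0.15 (A_30_P01027893) and -0.54 ± 0.15 (A_30_P01033207, adjusted p = 0.00512, and a difference of 0.02 without scaling). The first of them, nearest to the 3′ end, was not well above background on any EDL or soleus cytoplasmic array and was at least 11.8-fold and 9.11-fold higher in nuclei there. On chromosome 7 the region with A_30_P01028474 held A_30_P01019216 at 2.68 ± 0.13 and A_30_P01017923 at -0.70 ± 0.15 (0.09 without scaling). The last read between 9.80 and 11.69 on all arrays, and its fractions overlapped in soleus. On chromosome 3 the probes gave -0.43 ± 0.22 (A_30_P01024401, adjusted p = 0.0908), -1.30 ± 0.18 (A_30_P01027028) and -3.92 ± 0.19 (A_30_P01021118). The last was not well above background on any nuclear array and was at least 15.8-, 11.6- and 18.9-fold higher in cytoplasm in EDL, soleus and TA, although these 3 probes lie next to each other.

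Inside 115 short regions the array also carried a probe of an annotated gene on the same strand. Where both were tested (69 regions) the differences went together, with r = 0.51 and rho = 0.64 across regions. Part of this was fixed in advance, because some of the paired probes share at least 30 bases. A_30_P01027180 and the probe of AK145507 do so, at 1.79 and 1.78. Over all 98 tested pairs of a short-region probe and a probe of another name sharing 30 bases, r was 0.93. Of 67 probe pairs with both called, 61 had 1 direction. Among them, chr17:39983902-39985688 has the probe with the highest mean signal and holds the probe of Rn18s, the 18S ribosomal RNA. Its own probe A_30_P01023029 read 13.71, 13.34 and 13.52 in EDL cytoplasm and 15.24, 15.39 and 15.37 in EDL nuclei, 14.1, 13.89 and 14.18 in soleus cytoplasm and 15.42, 15.3 and 15.26 in soleus nuclei, and 13.6, 15.05 and 15.24 in TA cytoplasm and 15.79, 15.8 and 15.49 in TA nuclei. The nuclear arrays were higher in each muscle, by 1.38 ± 0.18 (adjusted p = 6.07e-06) over the 3. The probe of Rn18s differed by 0.15 ± 0.09 and that of the transcript AK145507 in the same interval by 1.78 ± 0.29. This region and its neighbour chr17:39982023-39983277 hold 2 of the 4 short-region probes with the highest mean signal. Their sequences are printed with the bases shared with a probe of another name in capitals.
A_30_P01023029, chr17:39983902-39985688, forward: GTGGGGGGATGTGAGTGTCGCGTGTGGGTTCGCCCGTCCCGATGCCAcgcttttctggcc
A_30_P01020015, chr17:39982023-39983277, forward: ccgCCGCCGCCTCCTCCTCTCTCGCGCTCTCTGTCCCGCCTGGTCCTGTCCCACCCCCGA

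A_30_P01020015 has 57 of its bases in common with the probe of Gm6780, and its difference of 0.27 ± 0.10 (adjusted p = 0.0227) became -0.28 with 75th percentile scaling and lost its call without soleus nuclei replicate 1 (adjusted p = 0.0512). The other probes of high signal, A_30_P01020800 of chromosome 18 and A_30_P01025521 of chromosome 6, differed by -0.15 ± 0.08 (adjusted p = 0.122) and -0.22 ± 0.08 (adjusted p = 0.0326, 0.0558 with the replicate block, and 0.0531 to 0.0753 in 6 of 18 fits without 1 array). Of the other regions named for an annotated probe inside, A_30_P01019334 differed by 1.38 ± 0.12 and the probe of 1110002E22Rik in it by 1.35 ± 0.11. A_30_P01023737 gave -0.87 ± 0.11 and Gm3651 in it -0.58 ± 0.12. A_30_P01032841 gave -0.68 ± 0.12 (0.09 without scaling) and Gm10775 in it -2.06 ± 0.20. A_30_P01022768 gave -1.0 ± 0.13, with no test for 5830405M20Rik in it. In the region of Terc, the RNA of telomerase, A_30_P01033236 gave 0.12 ± 0.10 and the Terc probe -0.42 ± 0.17, while A_30_P01028273 of the same region gave -1.82 ± 0.15.

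RefSeq promoter windows (250 bases before to 50 after the start, GRCm38.p6) shared at least 30 bases with 26 short-region probes of 20 regions. In the 15 tested on the strand opposite to the gene, 8 were higher in cytoplasm and none in nuclei (median -0.46), and of the 12 on the same strand 5 were higher in cytoplasm and 2 in nuclei (median -0.28). Over all short-region probes 56.5% were higher in cytoplasm and 15.4% in nuclei, and over the array 38.6% and 31.2%, so counts this small set neither strand apart. The region at the start of Gas5, a snoRNA host gene, gave -0.34 ± 0.19 (A_30_P01029558), -0.04 ± 0.16 (A_30_P01032943) and -1.0 ± 0.13 (A_30_P01026655).

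Between soleus and EDL, arrays of a fraction share a slide and their pools share mice, and few short regions differed. In nuclei 13 probes were higher and 4 lower in soleus of 2662 tested, or 0.488% and 0.15%, against 0.978% and 0.579% of all probes (1.56% in either direction). The 17 probes came from 15 regions, and the differences ran from 0.94 to 3.43 and from -2.57 to -0.96. In cytoplasm 1 was higher and 16 lower of 2713 tested, or 0.0369% and 0.59%, against 0.853% and 0.57% (1.42%). Only A_30_P01028355 was called in both fractions, in the same direction. With the replicate number as a block, which pairs pools of the same mice, 14 probes were called in nuclei and 10 in cytoplasm. Of all probes 1.06% and 0.798% were called under that setting. Single arrays weighed on these counts: there were 8 in nuclei without EDL nuclei replicate 2 and 3 in cytoplasm without EDL cytoplasm replicate 2, and 28 and 39 without TA cytoplasm replicate 1. Without soleus cytoplasm 2 there were 24 in nuclei and 12 in cytoplasm (2.11% and 0.96% of all probes).

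The largest of these differences was in chr1:20669157-20672643, forward strand, where all 3 probes were higher in soleus nuclei. A_30_P01028955 read 4.14, 4.11 and 4.46 in EDL nuclei, 7.72, 7.6 and 7.67 in soleus nuclei and 3.74, 3.67 and 4.58 in TA nuclei. The cytoplasmic arrays read 3.5, 3.8 and 2.14 in EDL. Those of soleus read 2.31, 4.56 and 3.24, and those of TA 3.6, 4.48 and 3.32. The soleus nuclear arrays stood alone, and no other array exceeded 4.58. Soleus minus EDL in nuclei was 3.43 ± 0.50 (adjusted p = 0.00161), with 3.06 (A_30_P01028051) and 3.15 (A_30_P01024151) for the others, and 0.22 ± 0.50 in cytoplasm. In soleus it was at least 17.7-fold higher in nuclei than in cytoplasm. Il17a, a cytokine gene, was probed 51761 bases downstream. In the RefSeq table of a later build the genes upstream of Il17a are Mir133b, Mir206 and Lincmd1, the muscle lncRNA linc-MD1 named above. Whether the region is part of Lincmd1 was not tested because the builds differ.

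On the same chromosome A_30_P01021998 of chr1:163527603-163527999 read 5.1, 5.22 and 4.63 in EDL nuclei and 7.91, 7.95 and 7.87 in soleus nuclei. Its soleus minus EDL difference was 2.93 ± 0.35 (adjusted p = 0.000286) in nuclei and 0.07 ± 0.35 in cytoplasm. No TA array had it well above background. The other probes of its region, A_30_P01023496 and A_30_P01026167, were not called between soleus and EDL nuclei. Lower in soleus nuclei were A_30_P01028101 of chromosome 10 (-1.73 ± 0.30, adjusted p = 0.00635) and A_30_P01027941 of chromosome 16 (-1.35 ± 0.21, adjusted p = 0.00302), whose next annotated gene on the strand, the cell adhesion gene Lsamp, was probed 1551980 bases away. In cytoplasm A_30_P01024960 of chromosome 5 was lower in soleus by -1.72 ± 0.29 (adjusted p = 0.00613), with 8.65, 7.72 and 7.87 in EDL and 6.82, 5.84 and 6.43 in soleus. A_30_P01031849 of chromosome 11 was lower by -1.52 ± 0.33 (adjusted p = 0.035, and 0.095 with the replicate block) and A_30_P01028355 of chromosome 16 higher by 1.61 ± 0.38 (adjusted p = 0.0494, and 0.0965 with the block). Leaving out 1 array ended the call of A_30_P01031849 in 11 of 18 fits (adjusted p = 0.0505 to 0.134) and that of A_30_P01028355 in 14 (0.0522 to 0.199), in both cases with the highest value when EDL cytoplasm replicate 2 was absent.

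Whether the difference between fractions depends on the muscle was tested with the interaction. It was called for 45 of 2316 probes (1.94%, from 42 regions), against 1.55% of all probes. With the replicate block it was called for 15, and for 0.54% of all probes. With slide as a random block 1 probe was called (0.074% of all probes). With the nuclear arrays of a muscle averaged to 1 sample 0 were called (0.0% of all probes). Under that setting 51 of the 2316 had an unadjusted limma p under 0.05. Without scaling 1139 of 2316 were called, where 36.4% of all probes were. Without soleus nuclei replicate 3 the count was 4, and without TA cytoplasm replicate 3 it was 116. Of the 45, nuclei minus cytoplasm was highest in soleus for 38 and lowest in TA for 37, which is also the order of the medians of all probes, and 28 had both signs among the muscles.

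The smallest adjusted p (0.00585) was that of A_30_P01025703 of chromosome 18, in a region 9608 bases from the probe of Ube2d2, a ubiquitin-conjugating enzyme. Nuclei minus cytoplasm was 0.08 ± 0.22 in EDL and 0.65 ± 0.22 in soleus, whereas TA had -1.65 ± 0.22. In TA its cytoplasmic arrays read 6.43, 6.04 and 5.88 and its nuclear arrays 4.11, 4.36 and 4.95, while the fractions overlapped in EDL. A_30_P01029068 of chr6:47915489-47916089, next to AI894139, read 4.66, 4.74 and 4.18 in EDL nuclei against 5.11, 5.74 and 5.53 in cytoplasm, and 6.40, 6.28 and 6.51 in soleus nuclei against 5.38, 4.50 and 5.43. The fractions were in opposite order in EDL and soleus, with -0.94 ± 0.25 in the first, 1.29 ± 0.25 in the second and -0.78 ± 0.25 in TA (adjusted p of the interaction 0.0104). A_30_P01028242 of chr6:126506134-126506913, downstream of which lies the potassium channel gene Kcna5, gave -1.38 ± 0.21 in EDL and -1.74 ± 0.21 in TA, whereas soleus had 0.16 ± 0.21 (adjusted p of the interaction 0.0137).

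A_30_P01026929 of chr14:62280837-62283960 kept its direction and changed in size. It lies 17141 bases downstream of the probe of Dleu2, a lncRNA that hosts microRNAs. It read 4.62, 4.80 and 5.09 in EDL cytoplasm and 7.98, 7.94 and 7.91 in EDL nuclei, 3.05, 3.76 and 3.29 in soleus cytoplasm and 7.60, 7.59 and 7.72 in soleus nuclei, and 5.19, 4.44 and 4.40 in TA cytoplasm and 6.72, 6.81 and 6.67 in TA nuclei. The fractions were separate in every muscle, with soleus cytoplasm below the others. The difference was smallest in TA (2.06 ± 0.23), followed by EDL (3.11 ± 0.23) and soleus (4.27 ± 0.23), where the probe was not well above background in cytoplasm (at least 19.3-fold higher in nuclei). The adjusted p of the interaction was 0.0115. The Dleu2 probe gave -0.24 ± 0.14 over the 3 muscles.

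**Figure D5:**
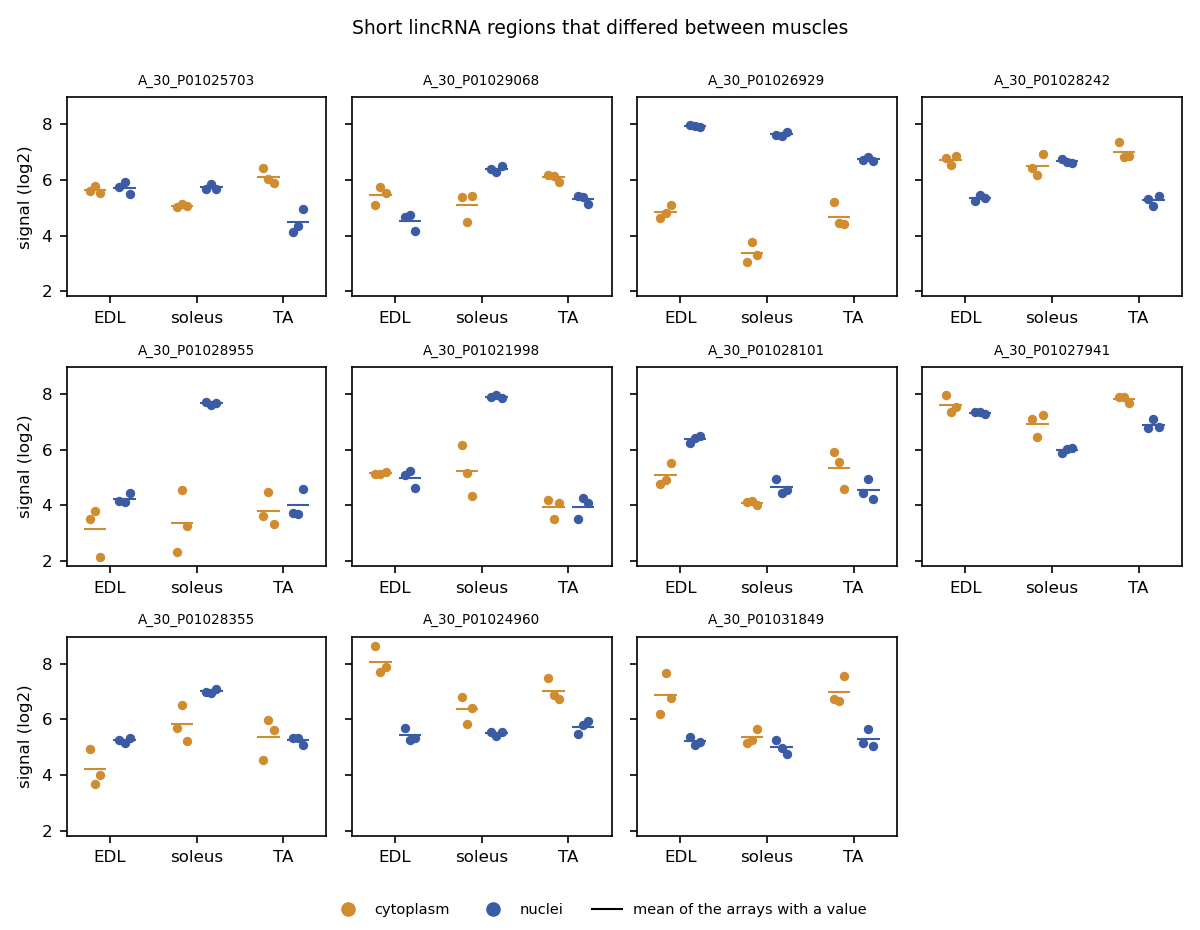
Log2 signal of each array by muscle for the short lincRNA regions named for the interaction (top row) and for soleus against EDL in nuclei (middle row) and in cytoplasm (bottom row), with cytoplasm in orange, nuclei in blue and a line at the mean. For A_30_P01028955 and A_30_P01021998 the 3 soleus nuclear arrays lie above all other arrays.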

How the data were processed

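The authors deposited single-channel Agilent scanner files (Feature Extraction 10.7.3.1, per the labels), whose intensity values were already background-subtracted spot by spot, and a normalized matrix covering 227 of the 3613 probes. Here the processed intensity was put on the log2 scale, as was the matrix the authors made, which served as an alternative. Spots lacking the positive and significant flag, or flagged as outliers, were left missing. Arrays were quantile-normalized and spots of a probe name averaged. A model of 6 group means was fitted over all probes with limma 3.58.1 in R 4.3.3 (lmFit and eBayes), with Benjamini-Hochberg adjustment across every probe tested. A probe needed values on at least 2 of 3 arrays per group. The interaction is a moderated F test on limma's variances, computed from the differences of the 3 muscles with each probe's number of values. In fits with a block it is limma's own F. The term "well above background" is a scanner flag. The fits were tested on simulated data. The number of arrays limits the precision.

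Members, lists and tests were chosen with earlier results of these data known. Probes were named by rules: the 6 largest differences each way without overlap and with signal in each group, 1 per region; the 4 smallest interaction p; the largest soleus against EDL differences without overlap and with signal well above background in both muscles, up to 2 each way per fraction, 1 per region; the 3 with the highest signal seen in 1 fraction alone; the 3 regions with the widest spread; and the highest signals, 6 with an annotated probe inside and 4 of all. The GTGACA word, the chromosome 7 stretch, the Ipw and Gas5 matches and the further probes of each region were added after values were seen.

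By the labels, equal replicate numbers of EDL and soleus mean the same mice, and in TA only some. Deviations of same-numbered arrays correlated between -0.1113 and 0.1007 (18 pairs, 35528 probes). Alternatives were other scalings, normexp, a stricter filter, the authors' matrix, blocks, averaged arrays, SAM and leaving out each array. Other software was Python 3.11.15, pandas 2.3.3 and matplotlib 3.10.9.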

Additional observations from a re-analysis of the deposited data

Results flagged for a closer look

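The difference between nuclei and cytoplasm depended on the muscle, by the interaction test itself, for 45 of the short-region probes. Among the probes named above, the adjusted p of the interaction was 0.00585 for A_30_P01025703, 0.0104 for A_30_P01029068, 0.0115 for A_30_P01026929 and 0.0137 for A_30_P01028242. It was 0.0172 for A_30_P01021998, 0.02 for A_30_P01028955 and 0.0443 for A_30_P01028101, which also differed between soleus and EDL nuclei. For A_30_P01024852, near Socs2, it was 0.0338, with nuclei minus cytoplasm at 2.35 ± 0.27 (log2, SE) in EDL, 3.05 ± 0.27 in soleus and 1.06 ± 0.27 in TA. With slide as a random block 1 of the 45 was called, and when the nuclear arrays of each muscle were averaged to 1 sample none was. Under the latter setting 51 of all 2316 tested short-region probes had an unadjusted limma p under 0.05.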

How the results depend on the processing

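The 12 probes printed first kept their direction and their side of the threshold in all 320 alternatives run on them. They were chosen on these same arrays for large differences without overlap, so this stability was largely set by the choice. Over all single named probes, 994 of 1066 alternative values did so, 62 were no longer past the threshold, 5 came to pass it and 5 turned: without scaling A_30_P01033207 was at 0.02, A_30_P01017923 and A_30_P01032841 at 0.09 and A_30_P01020800 at 0.0, and with 75th percentile scaling A_30_P01020015 was at -0.28. The cause was not tested for these or for the changes that follow, except where fewer probes or samples entered.

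Percentages in brackets are the shares of all probes called under the same setting. With 75th percentile scaling 11 probes differed between soleus and EDL cytoplasm (1.06%). Without scaling the median was -0.12 over the 3 muscles and 0.56 in soleus. Between soleus and EDL 49 probes differed in nuclei (3.49%) and 29 in cytoplasm (1.45%). In the interaction 1139 were called, where 36.4% of all probes were. With normexp the median was -0.23 and these counts were 34 (2.99%), 28 (1.91%) and 87 (3.64%). The median of all probes was then -0.04. Over the 3 muscles 1282 probes were called toward cytoplasm and 347 toward nuclei (68.9% in either direction). With spots well above background alone, fewer probes were tested. Calls were 1048 over the 3 muscles (71.6%), 813 in EDL (48.4%), 596 in soleus (42.6%) and 10 for soleus against EDL cytoplasm (1.72%). In the authors' matrix, with 227 members, there were 132 over the 3 muscles, 89, 75 and 93 in EDL, soleus and TA, 3 and 0 for soleus against EDL in nuclei and cytoplasm (limma; 36 at an unadjusted p under 0.05 for the latter) and 5 in the interaction. The replicate block, by which pools of the same mice are paired, gave 10 in soleus against EDL cytoplasm (0.798%) and 15 in the interaction (0.54%). Its other counts stayed within 1.5 times. Slide as a block gave 30 (2.85%) and 46 (3.0%) for soleus against EDL in nuclei and cytoplasm. As a random block (correlation 0.5237) it gave 889 over the 3 muscles (36.1%), 347 in EDL (12.1%), 182 in soleus (6.89%) and 1 in the interaction (0.074%). With nuclear arrays averaged to 1 sample per muscle 1087 were called over the 3 muscles (39.9%). In EDL, soleus and TA the counts were 262 (7.23%), 106 (3.23%) and 341 (10.0%). They were 0 in the interaction (0.0%) and in soleus against EDL nuclei (0.0%) and cytoplasm (0.0902%), with 51, 26 and 192 members unadjusted. TA cytoplasm 1 and 2 as 1 sample gave 29 in soleus against EDL cytoplasm (2.21%), and SAM called 757 in TA (23.6%). By the weaker flag 2652 probes were detected in EDL cytoplasm, 2432 in soleus cytoplasm and 2380 in TA nuclei. Leaving out 1 array gave 1564 to 1698 calls over the 3 muscles, 1076 to 1394 in EDL, 811 to 1245 in soleus, 1247 to 1552 in TA, 8 to 28 and 3 to 39 for soleus against EDL in nuclei and cytoplasm, 4 to 116 in the interaction and medians of -0.64 to -0.54. The strand comparison was not run because no short interval is given on both strands. Dim probes limit what can be seen: 734 of 3613 were well above background on no array.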
